A study of Mus musculus with 183 samples.

Results

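The messenger RNAs (mRNAs) examined encode the SKI complex and its partners: *Skiv2l*, *Ttc37*, *Wdr61*, *Hbs1l*, *Aven* and *Focad*. These 6 genes were chosen by name among the 53380 genes of a count table, and all 6 were also present among the 7240 mRNAs of a table of protein binding. The question was how the mRNAs of the complex stood, and how fast they decayed, when a partner was lost. Counts came from 47 RNA sequencing libraries of mouse embryonic stem cells (mESCs), with 24540658 to 34208466 counts per library.

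The cells belonged to 2 lines, each a single clone carrying CreERT2, a Cre recombinase switched on by 4-hydroxytamoxifen (4OHT), at the Rosa26 locus. Clone 5F was labelled Rosa26Cre-ERT2/- with Skiv2lfl/fl, so that Cre can remove the floxed exons of *Skiv2l*, and carried no edit of *Aven*. Clone 7E was labelled Rosa26Cre-ERT2/BirA-V6, with both copies of *Skiv2l* tagged (Skiv2l3xFLAG-Avi/3xFLAG-Avi) and Aven-/-. The labels of the 7E decay libraries did not list the floxed allele, which the labels of other libraries of clone 7E did list. Each clone was sampled at day 0 (no 4OHT) and at day 4 of 0.1 uM 4OHT. At each day cells received actinomycin D, which blocks transcription, for 120, 240 or 360 min, or DMSO for 360 min (mock). The actinomycin D dose is 5 ug/ul in the labels and 5 µM in the methods. Each of the 16 groups held 3 libraries, except 5F at day 0 and 120 min with 2. The methods call such replicates technical, so the p-values measure only the spread between these libraries. Clone, tag and *Aven* genotype changed together between 5F and 7E and cannot be told apart.

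The SKI complex is the cytoplasmic partner of the RNA exosome, a nuclease that degrades RNA from its 3′ end. Its helicase, SKIV2L, pulls RNA off ribosomes and threads it toward the exosome, and TTC37 and WDR61 hold the helicase in place. The complex is known for degrading mRNAs on which ribosomes have stalled, and inherited loss of SKIV2L or TTC37 causes a syndrome of liver disease and diarrhoea.

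Both edited genes were cut with Cas9 guides, which are shown because they fix what each allele lacks. Each guide had 1 exact site followed by NGG in GRCm38 (mm10). Sequences are 5′ to 3′ as the guide reads, with the PAM from the genome in capitals. The *Skiv2l* guides lie on the minus strand in introns 10 and 17, at chr17:34846312-34846331 and chr17:34844195-34844214, where the loxP sites were placed. The *Aven* guides lie on the plus strand, in coding exon 3 at chr2:112625181-112625200 and in the untranslated part of exon 6 at chr2:112630912-112630931.
Skiv2l Intron 10: gacctgggctaacttaggaaAGG
Skiv2l Intron 17: tctccccttaaccttaaatgGGG
Aven Exon3: gctgaggagaaagaatgggaTGG
Aven Exon6: agagtgcctgaagcaaatgcTGG

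Removal of *Skiv2l* exons 11 to 17 (chr17:34844338-34846173) takes 907 of 3951 transcript nucleotides in a transcript of 28 exons, or 23.0%. With reads spread evenly, that loss alone is a log2 difference of −0.38. The *Aven* cuts enclose 5731 genomic nucleotides and 611 of 4735 transcript nucleotides, or 12.9%, equal to a log2 difference of −0.20. A gene count sums all exons, so it cannot show which exons were read.

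*Skiv2l*, the helicase gene and the target of 4OHT, was checked first. Levels are given as normalized counts, which are counts divided by a size factor of the library and, for the actinomycin D times, multiplied by 1 spike-in factor per time (0.649 at 120, 0.531 at 240 and 0.438 at 360 min). In 5F mock libraries *Skiv2l* stood at 4150, 4136 and 4205 at day 0 and at 4415, 3825 and 4162 in the libraries labelled day 4. The groups overlapped, with a log2 difference of −0.01 (SE 0.05, 95% interval −0.11 to 0.09, adjusted p = 0.914), an interval that does not reach the −0.38 of the exon loss. The count of the targeted gene thus did not fall in the 5F libraries labelled day 4, and every day difference in 5F is given under that label only. Recombination itself was not tested here. The paper's methods state that the floxed clones were checked for it by RT-qPCR or western blot after 4OHT.

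In 7E *Skiv2l* stood at 968, 1038 and 903 at day 0 and at 406, 389 and 368 at day 4, so every 7E library was below every 5F library. Within 7E it fell by 1.32 on the log2 scale (SE 0.07, adjusted p = 7.86e-13), to 0.399 of its day 0 level. Before any 4OHT, 7E was already lower than 5F by a log2 difference of −2.10 (SE 0.05, adjusted p = 1.07e-19), and at day 4 the difference was −3.42 (SE 0.07, adjusted p = 6.76e-19). The day effect differed between the clones by −1.31 (SE 0.09, adjusted p = 4.43e-10).

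*Skiv2l* spans chr17:34839228-34850210 on the minus strand, closely packed with other genes, and the counting did not use strand. *Nelfe*, 180 nt away on the opposite strand, was also lower in 7E than in 5F, by −0.75 at either day (adjusted p = 1.94e-10 and 3.43e-09). *Dxo*, which shares 6 exonic nt with *Skiv2l*, was lower by −0.58 at day 0 and −0.79 at day 4. *Stk19*, the next coding gene, differed by −0.10 and 0.13, neither past the threshold. The part of clone-wide change at this locus in the *Skiv2l* difference was not tested.

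**Figure D1:**
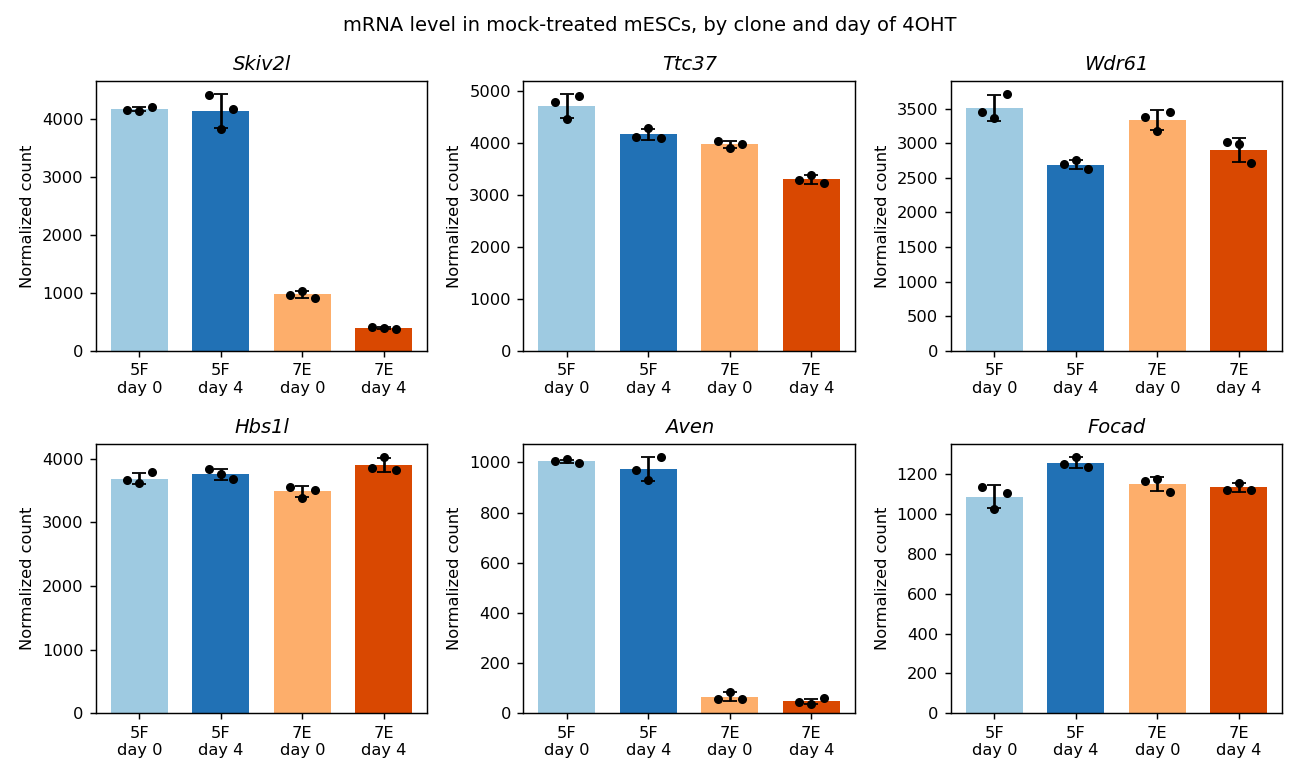
Normalized counts of the 6 mRNAs in mock libraries by clone and day of 4OHT. Bars are means, error bars are SDs and points are the 3 libraries of a group. *Skiv2l* and *Aven* are far lower in 7E than in 5F, *Skiv2l* falls again in 7E at day 4, and the other 4 mRNAs differ by small amounts.

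*Ttc37* encodes the scaffold of tetratricopeptide repeats that binds both SKIV2L and WDR61 (chr13:76098734-76190316, plus strand). Its mock counts in 5F were 4785, 4455 and 4897 at day 0 and 4121, 4277 and 4093 in the libraries labelled day 4. In 7E they were 4032, 3902 and 3973 at day 0 and 3286, 3387 and 3223 at day 4. In either clone every day 4 library lay below every day 0 library, and at either day every 7E library lay below every 5F library.

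The fall with day was 0.88-fold in 5F, a log2 difference of −0.18 (SE 0.05, adjusted p = 0.00796), and 0.83-fold in 7E, −0.27 (SE 0.05, adjusted p = 8.19e-05). The 5F call was lost without the third day 0 library, where the difference was −0.15 (adjusted p = 0.0684). Between clones *Ttc37* was lower in 7E by −0.25 at day 0 (SE 0.04, adjusted p = 5.73e-05) and by −0.34 at day 4 (SE 0.05, adjusted p = 1.52e-05). The day effects of the 2 clones differed by −0.09 (95% interval −0.22 to 0.04, adjusted p = 0.419).

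*Wdr61* encodes the WD40-repeat subunit, which is shared with the PAF1 transcription elongation complex (chr9:54714735-54734519, minus strand). In 5F its mock counts were 3452, 3360 and 3711 at day 0 and 2694, 2750 and 2620 in the libraries labelled day 4, with no overlap. The 7E libraries held 3384, 3173 and 3447 at day 0 and 3018, 2980 and 2707 at day 4, again with no overlap.

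*Wdr61* fell by 0.38 on the log2 scale in 5F (SE 0.05, adjusted p = 7.44e-06) and by 0.20 in 7E (SE 0.05, adjusted p = 0.00431). The difference between these effects was 0.18 (95% interval 0.03 to 0.33, adjusted p = 0.11). 7E and 5F differed by −0.07 at day 0 (adjusted p = 0.227) and by 0.11 at day 4 (adjusted p = 0.125). Same-numbered libraries of the 2 clones varied together, and with the replicate number as a block both small differences passed, at adjusted p = 0.0227 and 0.00738. *Dnaja4*, which overlaps 1581 exonic nt of *Wdr61*, averaged 86.0 normalized counts in mock libraries.

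*Hbs1l* encodes a GTPase that rescues stalled ribosomes, and its short splice form links the SKI complex to the exosome (chr10:21295979-21368898, plus strand). Gene counts do not separate these forms. The 5F mock libraries held 3662, 3610 and 3787 at day 0 and 3838, 3751 and 3672 in those labelled day 4, which overlap. In 7E they held 3560, 3385 and 3507 at day 0 and 3860, 4032 and 3827 at day 4, which do not.

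*Hbs1l* rose 1.12-fold in 7E, by 0.17 on the log2 scale (SE 0.05, adjusted p = 0.00809), and differed by 0.03 in 5F (95% interval −0.07 to 0.12, adjusted p = 0.716). These effects differed by 0.14 (95% interval 0.02 to 0.26, adjusted p = 0.147). 7E and 5F differed by −0.08 at day 0 (adjusted p = 0.128, or 0.00875 with the replicate block) and by 0.06 at day 4 (adjusted p = 0.391).

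*Aven*, deleted in 7E, encodes an RNA-binding protein first known as an inhibitor of cell death (chr2:112492964-112634573, plus strand). It stood at 1004, 1012 and 998 normalized counts in 5F at day 0 and at 970, 929 and 1023 in the libraries labelled day 4. The 7E libraries held 56.6, 86.0 and 58.1 at day 0 and 45.7, 38.5 and 60.1 at day 4. Every 7E library was far below every 5F library, which is the direction the Aven-/- label gives.

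The log2 difference of 7E from 5F in *Aven* was −3.90 at day 0 (SE 0.10, adjusted p = 4.95e-19) and −4.33 at day 4 (SE 0.11, adjusted p = 5.38e-17), well past the −0.20 of the exonic sequence between the cuts. Its day differences were −0.04 in 5F (adjusted p = 0.628) and −0.47 in 7E (SE 0.21, adjusted p = 0.0767). The 7E difference passed without the third day 4 library, at −0.67 (adjusted p = 0.0172). *Ryr3* overlaps 916 exonic nt of *Aven* on the opposite strand and averaged 36.2 normalized counts. It was itself lower in 7E than in 5F, by −2.04 at day 0 (adjusted p = 3.27e-06) and −1.32 at day 4 (adjusted p = 6.5e-05), and rose by 1.19 between days in 7E (adjusted p = 0.00491). Without strand information, reads of the shared stretch cannot be assigned to either gene.

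*Focad* encodes focadhesin, a large protein examined in this series as a SKI partner (chr4:88094629-88411011, plus strand). Its mock counts in 5F were 1133, 1021 and 1102 at day 0 and 1250, 1286 and 1233 in the libraries labelled day 4, without overlap. In 7E they were 1162, 1172 and 1108 at day 0 and 1121, 1156 and 1119 at day 4, which overlap.

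*Focad* rose by 0.21 in 5F (SE 0.06, adjusted p = 0.0096), a call lost when each library was scaled to its own spike-in counts (0.15, adjusted p = 0.192), and differed by −0.02 in 7E (95% interval −0.14 to 0.10, adjusted p = 0.815). The difference of these effects, −0.23, passed narrowly (SE 0.08, adjusted p = 0.0473) and was lost when any of 10 of the 12 libraries was left out, or with the replicate block (adjusted p = 0.0648). *Focad* was also lower in 7E at day 4 by −0.15 (SE 0.06, adjusted p = 0.0463), a call lost when any 1 of the 6 libraries compared was left out, with DESeq2 (adjusted p = 0.0682) and without the filter on low counts (adjusted p = 0.11). At day 0 the clones differed by 0.08 (adjusted p = 0.259).

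Counted together, 3 of the 6 mRNAs changed in 5F, 1 higher and 2 lower, where 24.5% of all genes tested were called, 12.8% higher and 11.6% lower. In 7E 4 of 6 changed with day, 1 higher and 3 lower including the targeted gene, against 40.1% of all genes, 20.7% higher and 19.4% lower. Between clones 3 of 6 were lower in 7E at day 0 and 4 at day 4, against 39.7% called in either direction at each day and 19.7% and 19.4% called lower. With the replicate block 5 of 6 were called at day 0, all lower in 7E, against 49.7% of all genes called in either direction. At day 4 it also called 5 of 6, against 51% in either direction. The call added at day 4, *Wdr61*, was higher in 7E (0.11). The day effect differed between clones for 2 of 6, against 11.9%. With this many genes called, a call of *Ttc37*, *Wdr61*, *Hbs1l* or *Focad* was not by itself unusual among genes. By p in 5F, *Wdr61* ranked 227, *Ttc37* 2074 and *Focad* 2209 among 16349 genes. The 4 comparisons share libraries, so their values are side by side and not independent.

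**Figure D2:**
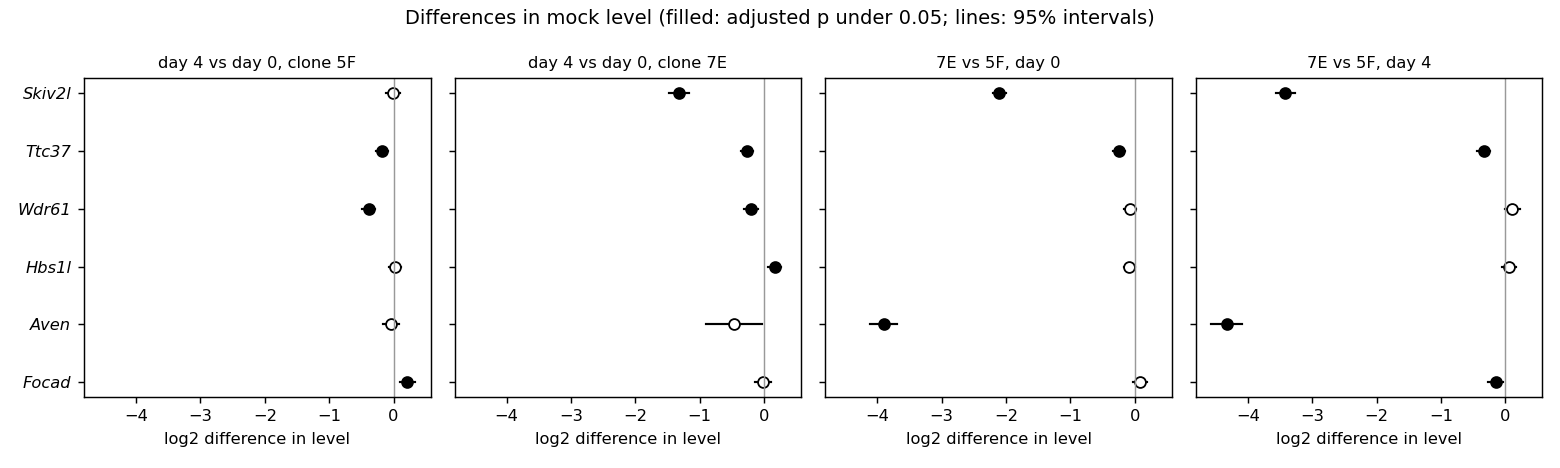
Log2 differences in mock level of the 6 mRNAs, 1 panel per comparison, with 95% intervals as lines and filled points where the adjusted p was under 0.05. *Ttc37* is left of 0 in all 4 panels, *Wdr61* is left of 0 in both day comparisons, and the widest differences are those of *Skiv2l* and *Aven* between clones.

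These differences are relative to the other mRNAs of a library. Counts per ERCC count, where ERCC sequences are a spike-in of fixed amount, averaged 348 in 5F at day 0, 341 in 5F at day 4, 319 in 7E at day 0 and 153 in 7E at day 4 (n = 3 each). Scaled to the ERCC counts of each library, the median gene moved by −1.11 in 7E between days and by −1.19 between clones at day 4. On that scale the *Hbs1l* rise in 7E turned to a difference of −0.93, which is 0.17 above the median gene, and *Skiv2l* fell by 2.42, or 1.32 beyond the median gene. In these bulk samples fewer cells and less RNA per cell cannot be told apart. Among genes called between days in 7E, 51.6% were higher with the median-ratio scaling and 1.72% with the ERCC scaling. The corresponding shares were 52.4% and 31.1% for 5F, 50.3% and 20.5% between clones at day 0, and 51% and 0.47% at day 4.

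All 10 mESC marker genes were detected, in mock libraries. Their summed levels, in RPKM (reads scaled to gene length and library size), were 2031 to 2098 in 5F at day 0, 1871 to 1928 in the 5F libraries labelled day 4, 1768 to 1821 in 7E at day 0 and 1489 to 1543 in 7E at day 4, with no overlap between the 4 groups. Primitive endoderm markers summed to 23.2 to 24.3 RPKM in 5F and 2.87 to 3.48 in 7E at day 0, and to 19.6 to 20.0 and 4.49 to 4.96 at day 4, with none of the 6 at 0 in a whole group. Early mesoderm and neural markers summed to 22.9 to 27.6 in 5F and 39.0 to 44.1 in 7E, mostly from *Tubb3*. At day 0 *Tubb3* averaged 21.1 RPKM in 5F and 33.7 in 7E. *Pax6* (2.13, 4.36), *Sox1* (0.662, 2.98) and *Eomes* (0.761, 1.05) were also higher in 7E at day 0. *T* (0.499, 0.294) and *Mixl1* (0.642, 0.462) were lower. Fibroblast markers stayed between 0.486 and 2.27 RPKM, with *Postn* at 0 in 5F at day 4 and in 7E at day 0. The mESC sums combine genes that went both ways. At day 0 *Zfp42* (133 RPKM in 5F, 227 in 7E), *Sox2* (145, 181) and *Esrrb* (53.8, 69.9) had higher means in 7E. *Nanog* was alike (152, 153), and the other mESC markers had lower means in 7E, *Dppa5a* by the most RPKM (750, 477). The part of these markers in the clone and day differences was not tested.

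Levels of different genes are compared per length, as RPKM in 5F at day 0 with the transcript lengths of the authors' table. *Wdr61* stood highest at 105 ± 4.70 (SD, n = 3), followed by *Hbs1l* at 47.8 ± 0.85, *Skiv2l* at 37.3 ± 0.07 and *Ttc37* at 23.9 ± 1.03. *Aven* at 7.52 ± 0.10 and *Focad* at 6.64 ± 0.33 stood lowest. Libraries of neighbours in this order did not overlap. The order depends on the length used: over the union of annotated exons *Skiv2l* stood at 29.6, *Wdr61* at 26.6, *Hbs1l* at 21.6, *Ttc37* at 14.2, *Aven* at 7.12 and *Focad* at 3.40 RPKM. With either length the subunit mRNAs were above those of *Aven* and *Focad*. At day 4 in 7E *Skiv2l* had dropped to 3.31 RPKM by transcript length, below *Ttc37* at 15.9 and *Focad* at 6.59.

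Decay was followed as the share of the mock level left after transcription was stopped. Half-lives are from a straight line through the natural log of the level against time, over 11 libraries in 5F at day 0 and 12 in each other group. The median gene had a half-life of 287 to 291 min. Size factors were set across all groups of a time point, and these groups shared the same spike-in factor. The likeness of these medians thus follows from the scaling, so whether bulk decay differed between groups was not tested. With this scaling, differences between groups in half-life or slope are relative to the other mRNAs. Apart from *Aven* in 7E and *Skiv2l* in 7E at day 4, the fitted half-lives of the 6 mRNAs were longer than that of the median gene. The 95% interval of *Wdr61* included the median gene in 5F at day 0 (254 to 442 min). It also did so in 7E at day 0 (280 to 480) and day 4 (271 to 449).

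*Skiv2l* in 5F at day 0 was left at 78.5% ± 6.04 of mock at 120 min and 54.3% ± 2.66 at 360 min, and in the 5F libraries labelled day 4 at 77.5% ± 8.43 and 52.4% ± 5.90. In 7E it was left at 74.7% ± 4.44 and 49.6% ± 3.59 at day 0, and at 56.3% ± 7.22 and 39.0% ± 1.73 at day 4. Its half-life was 413 min in 5F at day 0 (95% interval 338 to 529), 378 min in the libraries labelled day 4, 354 min in 7E at day 0 and 268 min in 7E at day 4 (208 to 377).

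The decay of *Skiv2l* was thus nominally fastest where its level was lowest. The slope differed between days in 7E by −0.06 log2 units per hour (95% interval −0.12 to 0.01, adjusted p = 0.675) and between clones at day 4 by −0.07 (95% interval −0.13 to −0.003, adjusted p = 0.681). Neither passed. With the replicate block at each time point, chosen after seeing the data, the day 4 difference was −0.07 (adjusted p = 0.0156). Without the mock libraries the half-life in 7E at day 4 was 461 min, since most of the fall came before 120 min.

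*Ttc37* had the most uniform course. It was left at 63.9% ± 1.66 in 5F at day 0, 64.3% ± 3.50 in 5F at day 4, 61.2% ± 1.90 in 7E at day 0 and 61.8% ± 2.78 in 7E at day 4 at 120 min. At 360 min the shares were 51.5% ± 1.68, 52.9% ± 4.98, 54.2% ± 2.29 and 51.8% ± 5.74. The SD ranges of the 4 groups overlapped at both times, and in each group the fall from 0 to 120 min exceeded that from 120 to 360 min. Half-lives were 379, 411, 431 and 400 min in the same order. A single rate describes such a course poorly: without the mock libraries the fits gave 801 to 1368 min.

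*Wdr61* had half-lives of 323 min in 5F at day 0 (95% interval 254 to 442), 392 min in the libraries labelled day 4, 354 min in 7E at day 0 and 338 min in 7E at day 4. At 360 min 45.8% ± 2.90, 53.1% ± 8.39, 48.5% ± 3.19 and 47.3% ± 5.69 of mock was left, and the SD ranges overlapped. The lower *Wdr61* level at day 4 in 5F stood beside a slope difference of 0.03 log2 units per hour (95% interval −0.02 to 0.09), and that in 7E beside −0.01 (−0.06 to 0.05).

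*Hbs1l* was among the more persistent, with half-lives of 582 min in 5F at day 0, 506 min in the libraries labelled day 4, 531 min in 7E at day 0 and 398 min in 7E at day 4 (350 to 462). At 360 min it was left at 65.6% ± 2.36, 61.5% ± 5.11, 62.1% ± 3.21 and 53.6% ± 4.36. The slope in 7E differed between days by −0.04 per hour (95% interval −0.07 to −0.01, unadjusted p = 0.0209, adjusted p = 0.412). Between clones at day 4 it differed by −0.03 (adjusted p = 0.711, or 0.00268 with the replicate block at each time point).

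*Focad* had half-lives of 643 min in 5F at day 0 (548 to 779), 438 min in the libraries labelled day 4 (398 to 488), and 487 min in 7E at either day. In 5F 67.7% ± 1.32 was left at 360 min at day 0 and 57.0% ± 0.84 at day 4, while 7E held 59.4% ± 5.31 and 59.0% ± 3.26. The slopes in 5F differed by −0.04 per hour (95% interval −0.07 to −0.01, unadjusted p = 0.0077, adjusted p = 0.842). The higher *Focad* level in the 5F libraries labelled day 4 therefore stood beside a nominally faster decay, which did not pass over all genes.

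*Aven* in 5F was left at 65.8% ± 1.99 at 360 min at day 0 and 63.9% ± 0.88 in the libraries labelled day 4, with half-lives of 595 and 564 min. The residual *Aven* signal in 7E fell much further. At day 0 it was left at 43.4% ± 9.31 at 120 min, 20.6% ± 2.87 at 240 min and 18.8% ± 6.69 at 360 min. At day 4 the shares were 32.0% ± 5.67, 29.2% ± 5.49 and 26.9% ± 6.91, flat after 120 min.

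These shares rest on few reads. The 7E day 0 libraries held 57, 88 and 57 *Aven* counts in mock, 37, 44 and 54 at 120 min, 21, 28 and 29 at 240 min and 39, 29 and 18 at 360 min. The half-life was 149 min in 7E at day 0 (114 to 214) and 215 min at day 4 (141 to 450). *Aven* decayed faster in 7E than in 5F at day 0, by −0.32 log2 units per hour (SE 0.05, adjusted p = 0.00896). The call was lost when replicate 1, 2 or 3 was left out (−0.38 to −0.29, adjusted p of 0.0603 to 1) and without the mock libraries (−0.26). At day 4 the difference was −0.20 (SE 0.06, adjusted p = 0.269, or 0.00273 with the replicate block at each time point). Whether this decay belongs to the edited transcript was not tested.

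**Figure D3:**
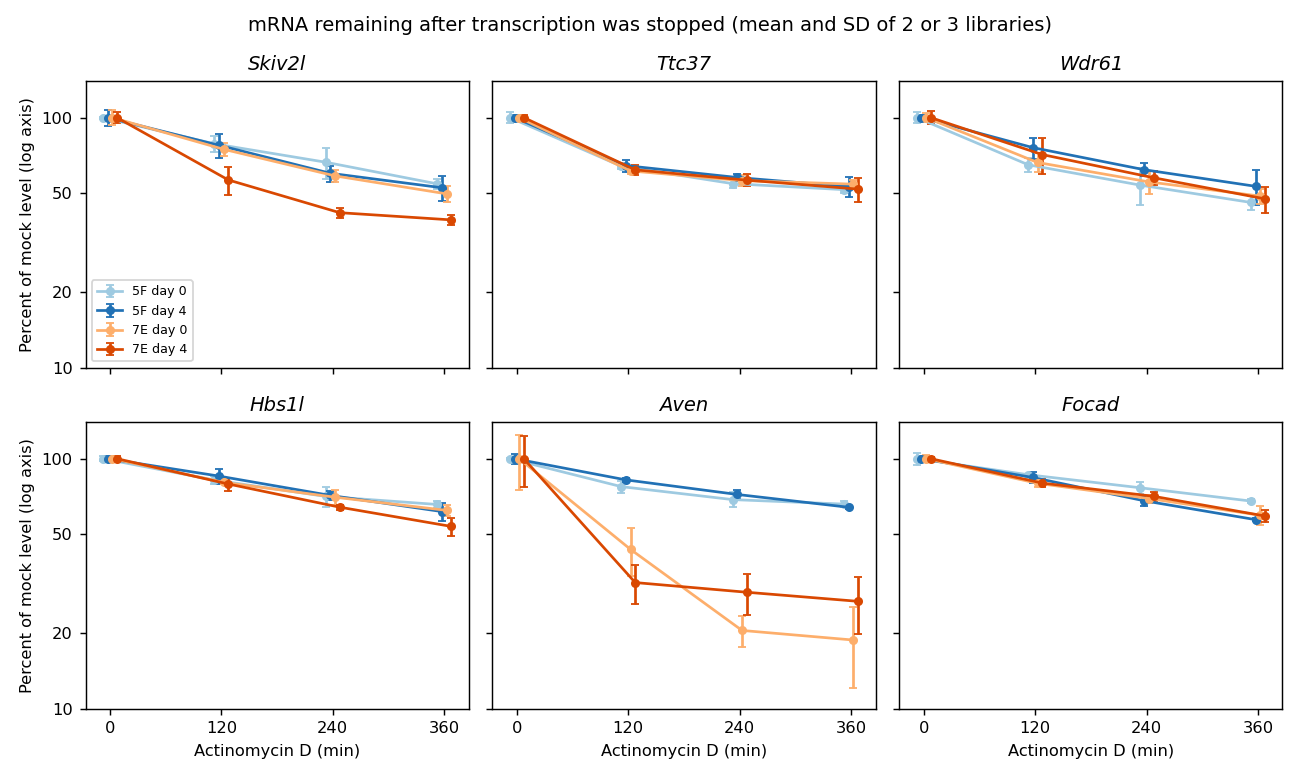
Percent of the mock level left against minutes of actinomycin D, on a log axis, for each mRNA in the 4 combinations of clone and day. Points are means of 2 or 3 libraries, bars are SDs, and points are shifted sideways so that they do not hide each other. The 4 curves of *Ttc37* lie close together, while *Aven* in 7E drops to 20.6% and 29.2% at 240 min.

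By count, 0 of the 6 slopes differed between days in 5F, where 0.196% of all genes were called, and 0 of 6 in 7E, where 0.884% were. At an unadjusted p under 0.05 there was 1 in each, *Focad* in 5F and *Hbs1l* in 7E. Over all genes, 674 of 17901 in 5F and 1510 of 17417 in 7E were under it. DESeq2 also called 0 of 6 in either, against 50 and 270 of all genes. Between clones 1 of 6 was called at day 0 (*Aven*, against 0.0394% of all genes) and 0 of 6 at day 4 (against 0.0284%). At day 4 *Skiv2l* and *Aven* had an unadjusted p under 0.05, against 1251 of 17627 genes in all. DESeq2 called 1 of 6 at that day, against 87 of all genes. With the replicate block at each time point 1 of 6 was called at day 0, against 9.88% of all genes, and 3 of 6 at day 4, against 20.5%. This block was not fitted between days, where same-numbered libraries reached correlations of 0.604 in 5F and 0.627 in 7E. The counts of 0 of 6 between days thus come from fits without it. The day effect on slope differed between clones for 0 of 6 (0% of all genes), with *Focad* alone under an unadjusted p of 0.05 and 0 of 6 called by DESeq2.

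**Figure D4:**
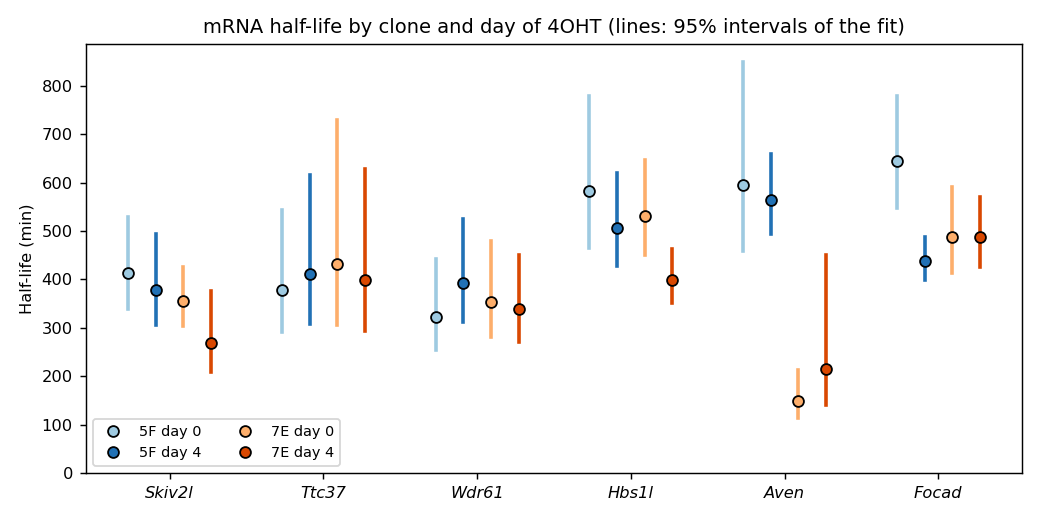
Half-lives in minutes of the 6 mRNAs in the 4 combinations of clone and day, with 95% intervals of the line fits. The intervals of *Aven* in 7E lie below those in 5F at both days, and *Focad* in 5F at day 0 stands highest at 643 min.

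The deposited table also gives 1 half-life per mRNA and group, without an error. Over the 24 pairs of mRNA and group, the half-lives computed here were 0.864 to 0.976 of those.

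Binding to the 6 mRNAs was available as the authors' pooled relative binding, from a method (CRAC) that crosslinks a tagged protein to RNA, purifies it and sequences the RNA attached. For each mRNA the values for SKIV2L, for XRN1 (the cytoplasmic nuclease that works from the 5′ end) and for MTR4 (the nuclear exosome helicase) are shares of their sum. They carry no replicates and no test. The median mRNA had 0.267 for SKIV2L, 0.337 for XRN1 and 0.319 for MTR4.

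*Skiv2l* mRNA itself had the highest SKIV2L share of the 6, at 0.551, above 92.8% of mRNAs, with 0.250 for XRN1 and 0.198 for MTR4. *Aven* was next at 0.496 (percentile 87.8), followed by *Wdr61* at 0.373 (71.5), *Focad* at 0.360 (69.5) and *Hbs1l* at 0.299 (57.6). *Ttc37* was the only one under the median, at 0.243 (43.8), and had the highest XRN1 share, 0.423. *Focad* had the highest MTR4 share, 0.516, and the lowest XRN1 share, 0.124. In the table RPKM of *Skiv2l* was 7.10 in the line with tagged SKIV2L and 11.9 and 13.7 in the lines with tagged XRN1 and MTR4, so its own level was lower in the line where its share was measured.

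AVEN is not among the proteins of these shares, and its median relative binding was 0.295. In a figure the paper gives AVEN counts relative to those of SKIV2L, XRN1 and MTR4, so AVEN values and shares may not be independent. AVEN binding was highest on *Aven* mRNA at 0.527 (percentile 90.0), then on *Ttc37* at 0.453 (82.3) and *Skiv2l* at 0.427 (78.5). *Hbs1l* at 0.238, *Focad* at 0.229 and *Wdr61* at 0.194 lay under the median. SKIV2L and AVEN thus had their highest values among the 6 on the mRNA of their own gene. For *Ttc37*, a high AVEN value went with a SKIV2L share under the median.

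**Figure D5:**
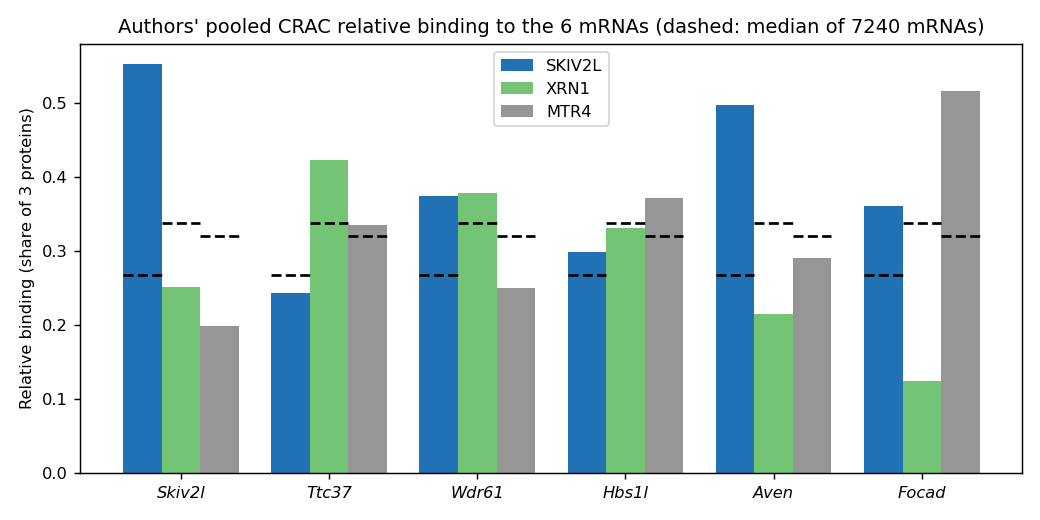
Authors' pooled relative binding of SKIV2L, XRN1 and MTR4 to the 6 mRNAs, as shares of the 3 proteins, with dashed lines at the medians of 7240 mRNAs. *Skiv2l* and *Aven* have the tallest SKIV2L bars, *Ttc37* the tallest XRN1 bar and *Focad* the tallest MTR4 bar.

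Genes that act with the SKI complex were given as 4 lists, whose counts stand beside 24.5% of all genes called with day in 5F, 40.1% in 7E and 39.7% between clones at either day. Of 12 RNA exosome genes 11 were tested, since *Exosc6* was listed at 0 in all mock libraries. In 5F 1 rose and 3 fell with day, and in 7E 1 rose and 4 fell, with list medians of −0.01 and −0.11 beside −0.005 and −0.008 for all genes. *Exosc7*, a subunit of the exosome ring, fell by 0.35 in 5F and by 0.29 in 7E, while *Exosc10*, a nuclear exosome nuclease, rose by 0.18 and 0.26. *Dis3l*, the cytoplasmic exosome nuclease that works with SKI, fell by 0.25 in 7E, and its day effect differed between clones by −0.27 (adjusted p = 0.0339). At day 0 it was higher in 7E than in 5F by 0.29. Between clones 3 exosome genes were higher in 7E and 4 lower at day 0, and 1 higher and 4 lower at day 4, including *Exosc5* at −0.26 and −0.31.

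Of 17 ribosome rescue and collision genes, all tested, 1 rose and 2 fell in 5F and 2 rose and 4 fell in 7E, with medians of 0.02 and −0.06, at shares below those of all genes. *Tcf25*, of the ribosome quality control complex, rose by 0.18 in 5F and 0.39 in 7E, and *Ankzf1*, which releases stalled nascent chains, fell by 0.26 and 0.50. *Gigyf2*, a repressor of translation at collided ribosomes, fell by 0.28 in 7E. *Abce1*, the ribosome recycling factor that works downstream of HBS1L, was higher in 7E than in 5F by 0.43 at day 0 and 0.51 at day 4. *Tcf25* differed more between clones. Its mean normalized counts were 6145 in 5F and 9730 in 7E at day 0, and 6977 and 12725 at day 4. Between clones 5 of the list were higher and 2 lower at day 0, and 3 higher and 4 lower at day 4.

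Of 8 nuclear exosome cofactors, 3 fell and 0 rose with day in each clone (medians −0.12 in 5F and −0.11 in 7E). *Zfc3h1*, of the poly(A) tail exosome targeting connection, fell by 0.36 in 5F and 0.46 in 7E. *Mtrex*, the gene of MTR4, fell by 0.14 in 7E. *Tent4b*, a poly(A) polymerase, was higher in 7E than in 5F by 0.54 at day 0 and 0.46 at day 4, where 2 of 8 were higher at each day, 1 lower at day 0 and 0 lower at day 4. Of the 5 genes of the PAF1 complex, which shares WDR61, 2 rose in 5F, and 1 rose and 1 fell in 7E. *Ctr9* rose by 0.27 in 5F and 0.46 in 7E, and *Paf1* was higher in 7E than in 5F by 0.46 and 0.35. All values of these lists are on the median-ratio scale, and no gene of the 4 lists was called in any decay comparison by edgeR.

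Likeness of pattern was described by Pearson's r of mean log2 normalized counts over the 16 groups, among 10592 other genes. All points share the decay of the whole mRNA pool with time, so high values are common. For *Skiv2l* and *Aven* the points also hold the clone difference, −2.10 and −3.90 at day 0. That difference is larger than their fall with time in 5F. Nearest to *Skiv2l* were *Pla2g1b* (0.992), *Rdm1* (0.991) and *Accsl* (0.985). The nearest to *Ttc37* was *Ecsit* (0.994), to *Wdr61* *Nudt5* (0.995) and to *Aven* *Bmper* (0.990). *Gnl2* was nearest to both *Hbs1l* (0.993) and *Focad* (0.986).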

How the data were processed

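Libraries were ribosomal RNA-depleted TruSeq v2 libraries, without strand information. Per the labels and methods, the authors aligned unique reads to mm10 with STAR, counted reads per Gencode gene and deposited raw counts, with 92 ERCC sequences. The authors' table of relative binding holds a ratio (share) per mRNA and RPKM from pooled replicates, and a further deposited table gives half-lives as a score in min from their line fits. Columns of fold changes, p-values and mean counts for the authors' own comparisons were not used. The members and lists were chosen with earlier results of these data known.

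Counts were divided by DESeq2 1.42.0 median-ratio size factors, set within each time point, and multiplied by 1 factor per time point from 34 ERCC sequences with a mean over 50 counts. Genes passed filterByExpr (minimum count 10, edgeR 4.0.16). Differences were tested by edgeR's quasi-likelihood test in R 4.3.3, with Benjamini-Hochberg adjustment over all genes tested and a threshold of 0.05. Level comparisons used mock libraries. Decay comparisons used all times, with time in hours as a line times group. Half-lives used ln(normalized count + 1), for which the choice to multiply by the spike-in factor follows the positive half-lives deposited. The fits were also run on simulated counts drawn independently for each library. Those counts lack the shared deviations of same-numbered libraries given below, so they do not test the fits under such deviations. Limma 3.58.1 and DESeq2 were alternatives. Lists name at most the 3 genes of largest change per comparison. No library was a copy of another (the lowest chi-square per gene between replicates was 3.20). Precision is limited by 2 or 3 libraries per group.

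Same-numbered libraries of the 2 clones deviated together at the same day and time, with correlations over all genes of 0.189 to 0.444 (day 0) and 0.218 to 0.483 (day 4) for mock libraries and over 0.1 in all 11 and 12 pairs of the decay series. Their numbers were therefore taken to pair them, but only in the replicate block alternatives, since the main fits held no pairing. The numbers of day 0 and day 4 libraries were not taken as pairs. Their correlations were −0.397 to −0.086 in 5F and −0.350 to −0.040 in 7E for mock libraries, and over all times they reached 0.604 in 5F (over 0.1 in 7 of 11 pairs) and 0.627 in 7E (6 of 12 pairs).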

Additional observations from a re-analysis of the deposited data

Results flagged for a closer look

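The day effect of 4OHT on the mock level differed between the clones for *Skiv2l* and *Focad*, by edgeR's test of the interaction over all genes. For *Skiv2l* the difference, 7E minus 5F, was −1.31 (adjusted p = 4.43e-10), with no overlap between days in 7E and overlap in 5F. It kept its direction and passed in all 18 alternatives tried. For *Focad* it was −0.23 (adjusted p = 0.0473), and 12 of 18 alternatives lost the call. No cause was tested.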

How the results depend on the processing

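Of 774 alternative values of the 60 member results, 725 stayed on the same side of the threshold, 26 lost the call, 18 gained it and 5 reversed. A change of direction counted as a reversal only where the main or the alternative value passed. Some of the 725 therefore differed in sign, with neither value past the threshold. All 5 reversals came from scaling to the ERCC counts of each library: *Hbs1l* between days in 7E (−0.93), *Wdr61* (−1.08) and *Hbs1l* (−1.13) between clones at day 4, and the difference of day effects for *Wdr61* (−0.85) and *Hbs1l* (−0.89). The number of members called between clones at day 0 became 5 with ERCC scaling and 5 with the replicate block. For the difference of day effects it became 6 with ERCC scaling, 1 without the filter on low counts, 1 with the replicate block and 1 to 3 when single libraries were left out. For decay between clones at day 0 it became 0 without the mock libraries and 0 to 0 when replicates were left out. At day 4 it became 1 with DESeq2 and, in alternatives chosen after seeing the data, 1 with time points as levels and 3 with the replicate block within each time point. The replicate block changed no other call of a member than those given above. Causes were not tested.

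Counts over all genes moved by more than 1.5 times with ERCC scaling for levels in 7E (6551 to 14974), between clones at day 4 (6522 to 15548) and for the difference of day effects (2056 to 14372, of which 0.376% higher against 55.7%). Decay calls moved most: 35 (2 to 160) in 5F, 154 (26 to 987) in 7E, 7 (0 to 1755) and 5 (0 to 3621) between clones at day 0 and day 4, and 0 (0 to 464) for the difference of day effects. Of 168 alternative half-lives 43 moved past their error, among them the 24 with the spike-in factor divided, which mostly turned negative. Of 24 binding percentiles 1 moved by over 5 points, that of *Ttc37* for SKIV2L (38.3 among mRNAs of at least 5 RPKM).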
